A study of Rattus norvegicus with 64 samples.

Results

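Voltage-gated sodium channel subunits were followed through postnatal development of the rat entorhinal cortex. The 7 genes were chosen by symbol from the count files, 4 that encode pore-forming alpha subunits (Scn1a, Scn2a, Scn3a, and Scn8a) and 3 that encode beta subunits (Scn2b, Scn3b, and Scn4b), of 17260 genes in all. All 7 passed the filter on low counts, which left 12521 genes. Scn4b was the least counted, with 0 counts in 4 samples and at most 745.

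The samples were 64 pieces of cortex from Long Evans rats, with no treatment or genetic change named in the labels. They came from the medial (MEC) or lateral (LEC) entorhinal cortex and held either layer II (LII) or the layers below it, III to VI (LDeep), at postnatal day 2, 9, 23, or 45 (P2, P9, P23, and P45). For each of the 4 combinations of region and layer there were 5 replicates of P2 rats, 4 of P9, 3 of P23, and 4 of P45. The layers were dissected under a microscope, so every library holds neurons together with glia, vessels, and, at the surface of LII, meninges. In such bulk tissue, fewer cells of a type and less RNA per cell cannot be told apart. In the study's microRNA libraries a number marked LII and LDeep of the same rat, but for these libraries the sources used here do not tie the replicate number to an animal. Libraries of one age may therefore share a rat, in which case p-values between ages that treat all libraries as separate are too small.

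Voltage-gated sodium channels open upon depolarization and carry the upstroke of the action potential. The alpha subunit forms the pore and the voltage sensors, and beta subunits, which are also cell adhesion molecules of the immunoglobulin type, change gating and placement in the membrane. In rodent forebrain, Scn3a (Nav1.3) is known as the channel of fetal and neonatal neurons, while Scn1a (Nav1.1), Scn2a (Nav1.2), and Scn8a (Nav1.6) are those of the mature brain.

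A level below is log2 CPM (counts scaled to library size as CPM, with library sizes adjusted by TMM and a prior count of 2), and levels of different genes are compared only as CPM per kb of the exon length in the files. LFC is a log2 fold change from a model of all 64 samples, given ± its standard error (SE), and a gene was called differentially expressed at a Benjamini-Hochberg adjusted p below 0.05 over all 12521 genes. Libraries held 3894334 to 11439143 counts (median 7569157.5), so 1 count stood for 0.0874 to 0.257 CPM. These totals set counting precision only.

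Some libraries stood apart from their groups. In MEC LII P2 replicate 1, Slc17a7, the vesicular glutamate transporter of cortical excitatory neurons, was at 0.600 CPM against 237 to 695 CPM in the other 19 P2 libraries, while Gad1, which makes GABA, was at 676 CPM against 75.5 to 218. In MEC LDeep P2 replicate 1, 5 markers of meninges (Dcn, Lum, Col1a1, Col1a2, and Slc6a13) summed to 414 CPM, in the range of LII, and in MEC LII P2 replicate 3 they summed to 22.3 CPM, in the range of LDeep. A further 4 libraries (MEC LII P23, MEC LDeep P45, LEC LII P45, and LEC LDeep P45, each replicate 2) held the cerebellar genes Gabra6 at 32.8 to 218 CPM and Pcp2 at 18.5 to 78.8 CPM, against at most 2.51 and 5.00 CPM in the other 60. In 2 further libraries, counts differed from every replicate of the group by a chi-square per degree of freedom of 39.99 to 58.4 (MEC LDeep P2 replicate 4) and 51.3 to 64.5 (LEC LDeep P45 replicate 4), against a median of 10.7 over 100 pairs of replicates. Values without the 3 MEC P2 libraries, the 4 libraries with cerebellar genes, or these 2 are given beside the calls they change, and leaving them out was chosen after seeing the data.

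Most of these genes changed with age. In older (P23/P45) compared with younger (P2/P9) samples, 5 of the 7 subunits were higher and Scn3a was lower. That is 6 of 7 called, near the 81.5% of all tested genes that were called in this comparison (41.0% higher and 40.5% lower). The median LFC was 1.06 over the 7 subunits and 0.01 over all genes tested. From P2 to P9 and from P9 to P23, 6 of 7 were called each time, 5 higher and Scn3a lower, against 63.3% and 64.6% of all genes. With the counts of equal age and replicate number summed, which leaves 16 values, the same 6 subunits were called between older and younger ages, with Scn4b at 3.02.

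Scn3a encodes Nav1.3 (rn6 chr3:51532627-51643140, minus strand, 27 exons). Its lowest, median, and highest levels were 7.82, 8.42, and 8.78 in P2 tissue (n = 20), 7.73, 7.98, and 8.37 in P9 tissue (n = 16), 6.54, 7.01, and 7.32 in P23 tissue (n = 12), and 6.42, 6.94, and 7.42 in P45 tissue (n = 16). Every older sample was below every younger one, and P2 and P9 overlapped, as did P23 and P45. Scn3a was 2.36-fold lower at the older ages (LFC -1.24 ± 0.05, adjusted p 3e-31). The step from P2 to P9 was an LFC of -0.37 ± 0.06 (adjusted p 2.3e-07), that from P9 to P23 was -1.02 ± 0.07 (3.7e-19), and that from P23 to P45 was -0.06 ± 0.07 (0.77).

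Scn2a encodes Nav1.2, the channel of unmyelinated axons and of the early axon initial segment (rn6 chr3:51687910-51822008, plus strand, 28 exons). It had the highest counts of the 7, from 2039 to 12334. From lowest through median to highest, levels were 8.60, 8.95, and 9.45 in P2 tissue, 9.30, 9.70, and 10.15 in P9 tissue, 9.64, 10.05, and 10.40 in P23 tissue, and 9.27, 9.90, and 10.22 in P45 tissue. P2 and P9 overlapped only between 9.30 and 9.45, and the later ages overlapped broadly. The rise between older and younger ages was 1.52-fold (LFC 0.60 ± 0.05, adjusted p 8.1e-16). Its step from P2 to P9 was 0.82 ± 0.07 (adjusted p 2.8e-15) and that from P9 to P23 was 0.26 ± 0.08 (0.0025), but 0.12 (0.14) by limma voom.

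Scn1a encodes Nav1.1, which in cortex is known from GABAergic interneurons in particular (rn6 chr3:52388812-52510507, minus strand, 27 exons). Its lowest, median, and highest levels were 5.64, 5.93, and 6.22 in P2 tissue, 5.75, 6.16, and 6.69 in P9 tissue, 6.26, 7.01, and 7.68 in P23 tissue, and 6.55, 7.24, and 7.85 in P45 tissue. The samples of P2 and P45 did not overlap, whereas neighbouring ages did. Scn1a rose 2.08-fold from the younger to the older ages (LFC 1.06 ± 0.05, adjusted p 2.5e-25). Its steps were 0.25 ± 0.07 (adjusted p 0.0018) from P2 to P9 and 0.88 ± 0.08 (1.9e-14) from P9 to P23.

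Scn8a encodes Nav1.6, the channel of nodes of Ranvier and of the mature axon initial segment (rn6 chr7:142575629-142683667, plus strand, 26 exons). Its lowest, median, and highest levels were 6.69, 7.09, and 8.27 in P2 tissue, 7.07, 7.58, and 8.39 in P9 tissue, 7.95, 8.68, and 9.22 in P23 tissue, and 8.0, 8.58, and 9.61 in P45 tissue. Here 1 P2 library, MEC LDeep replicate 4 at 8.27, reached into the range of P23, and the highest value, 9.61, was that of LEC LDeep P45 replicate 4, whose group was otherwise at 8.23 to 8.53. Scn8a rose 2.30-fold (LFC 1.20 ± 0.09, adjusted p 4.8e-17), by 0.54 ± 0.12 from P2 to P9 (0.00017) and by 0.93 ± 0.14 from P9 to P23 (9.3e-08). Without these 2 libraries the rise was 1.18 (1.5e-19), with steps of 0.61 (1.2e-06) and 0.92 (9e-10). Between P23 and P45 none of the 4 alpha subunits was called, with LFC between -0.14 ± 0.08 and 0.09 ± 0.08 (edgeR, smallest adjusted p 0.39 and smallest unadjusted p 0.078). limma voom and DESeq2 also called 0 of them.

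**Figure D1:**
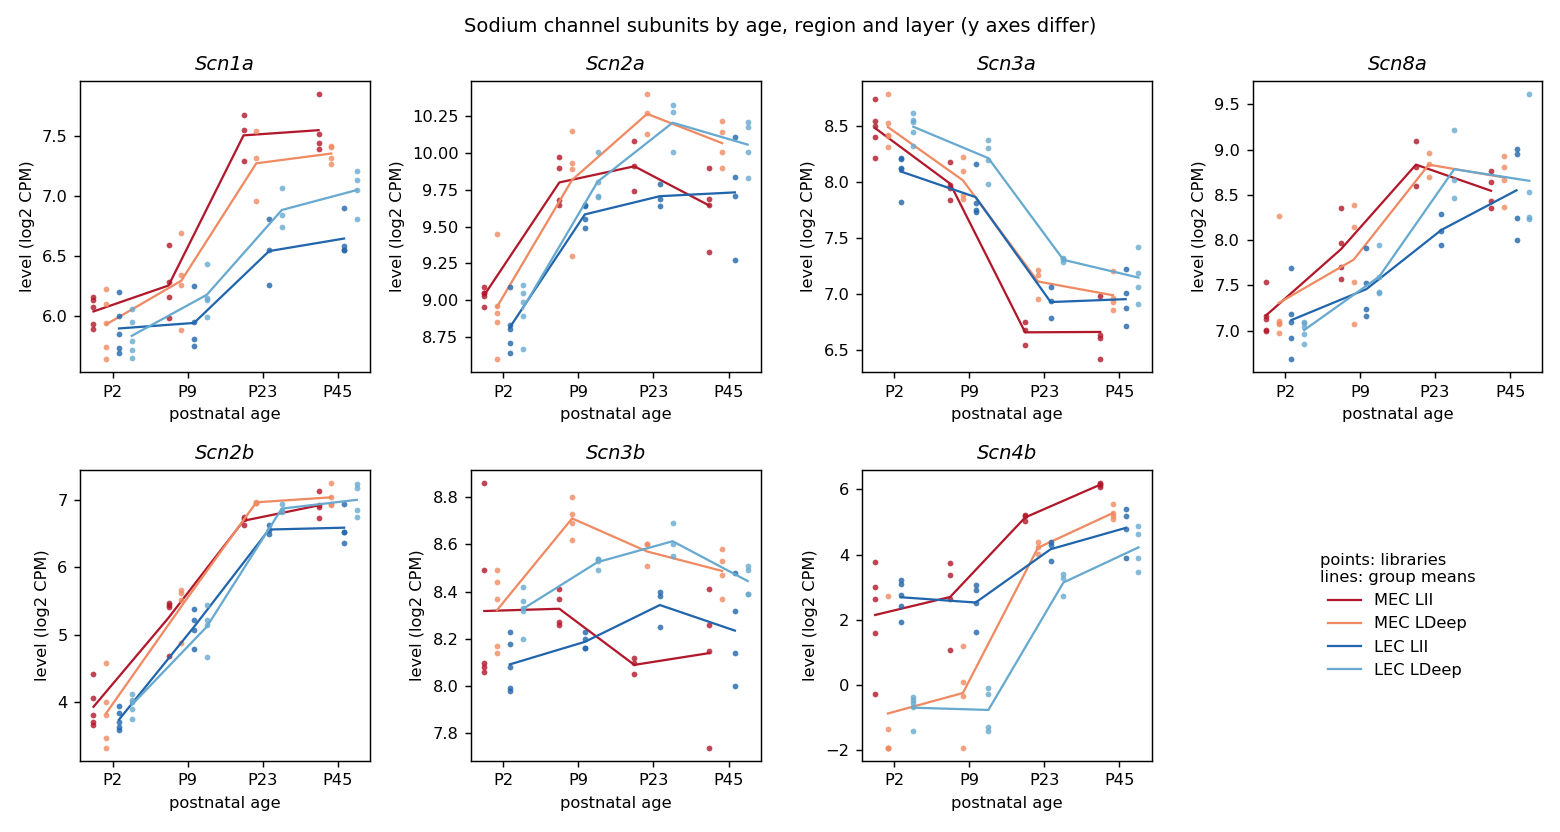
Level of each of the 7 subunits (log2 CPM, y axes differ between panels) against postnatal age, with 1 point per library and lines through the means of each region and layer. Scn3a falls from 7.73 or more at P2 and P9 to 7.42 or less at P23 and P45, the MEC means of Scn1a lie above those of the LEC at P23 and P45, and the LII means of Scn4b lie above those of LDeep at P2 and P9.

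Scn2a and Scn3a are transcribed away from each other with 44769 bases between them in rn6, and Scn1a lies 566803 bases beyond Scn2a. Promoter sequence of 250 bases before the start of transcription was available for 5 of the 7 subunits from RefSeq (GRCr8), and is shown for Scn3a, which fell, and for Scn8a and Scn2b, which rose. Capitals mark GC boxes (GGGCGG, or CCGCCC on the other strand).
Scn3a, chr3:70666199-70666448, minus strand: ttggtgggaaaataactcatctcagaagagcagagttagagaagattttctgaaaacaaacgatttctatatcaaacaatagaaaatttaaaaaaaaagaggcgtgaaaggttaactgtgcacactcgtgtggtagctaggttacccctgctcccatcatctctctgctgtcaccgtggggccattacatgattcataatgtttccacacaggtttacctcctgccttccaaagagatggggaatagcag
Scn8a, chr7:133860977-133861226, plus strand: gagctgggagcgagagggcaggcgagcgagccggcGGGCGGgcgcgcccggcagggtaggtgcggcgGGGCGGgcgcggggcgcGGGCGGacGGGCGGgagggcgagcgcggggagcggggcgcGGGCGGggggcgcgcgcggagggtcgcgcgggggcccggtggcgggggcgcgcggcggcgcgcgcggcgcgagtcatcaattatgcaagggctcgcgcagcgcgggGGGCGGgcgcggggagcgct
Scn2b, chr8:54322133-54322382, plus strand: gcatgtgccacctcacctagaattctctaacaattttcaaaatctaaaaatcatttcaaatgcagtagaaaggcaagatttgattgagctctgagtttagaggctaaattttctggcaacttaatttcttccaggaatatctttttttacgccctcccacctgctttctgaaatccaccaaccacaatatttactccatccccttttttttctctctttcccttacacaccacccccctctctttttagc
The Scn8a promoter held 6 GC boxes and was 86.0% G and C, above 99.9% of the 33469 promoters of that table, while 30.5% of them held at least 1 GC box. The Scn4b promoter was at 71.6% G and C with no GC box, and those of Scn2a, Scn3a, and Scn2b were at 39.6%, 41.6%, and 38.8%, below the median of 51.2%. None of the 5 held a TATA box (TATAAA, in 12.9% of all promoters on either strand) or the cAMP response element TGACGTCA (1.59%). Either part of the RE1 element bound by the repressor REST (TTCAGCACC, in 0.305% of all promoters, and GGACAGC, in 5.30%) was also without a match in these windows. The genes that rose had promoters at both ends of the range in G and C. These matches describe the letters in this window and not binding.

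Per kb of exon, Scn2a was the most abundant alpha subunit at every age. At P2 it was at 59.0 ± 8.4 CPM per kb (SD, n = 20), Scn3a at 49.7 ± 7.7, Scn8a at 22.7 ± 6.9, and Scn1a at 7.25 ± 0.97. The P2 ranges of Scn2a and Scn3a overlapped (46.4 to 83.4 and 33.1 to 64.6), and the mean log2 ratio of Scn2a to Scn3a within a library was 0.25 ± 0.21, with a lowest value of -0.16. At P45 the order was Scn2a (114 ± 21 CPM per kb, n = 16), Scn8a (63.0 ± 19.8), Scn3a (18.2 ± 3.2), and Scn1a (17.4 ± 4.5). Pooled over both regions, Scn3a and Scn1a did not differ there beyond their spread, with a log2 ratio of Scn1a to Scn3a of -0.08 ± 0.52. By region they moved oppositely at P45, with an LFC between MEC and LEC of 0.61 ± 0.10 for Scn1a and -0.23 ± 0.09, not called, for Scn3a. By the mean shares given below, Scn1a was above Scn3a in the MEC and below it in the LEC. The 4 alpha subunits summed to 139 ± 20 CPM per kb in P2 tissue, 184 ± 29 in P9 tissue, 226 ± 41 in P23 tissue, and 213 ± 39 in P45 tissue.

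As a share of the 4 alpha subunits per kb, Scn3a went from 35.9 ± 3.6% in P2 tissue to 21.0 ± 2.6% in P9 tissue, 8.57 ± 1.63% in P23 tissue, and 8.61 ± 1.13% in P45 tissue. The lowest share at P2 and P9 was 16.4% and the highest at P23 and P45 was 11.1%, so younger and older samples did not overlap. Scn2a went from 42.6 ± 2.2% at P2 to 56.6 ± 2.4% at P9 and stayed between 46.0% and 60.7% in every later sample. Scn8a was at 16.2 ± 2.7% and 17.7 ± 2.7% at P2 and P9, and at 28.1 ± 3.3% and 29.3 ± 4.8% at P23 and P45. Scn1a kept a small share, 5.28 ± 0.74% at P2 and 8.38 ± 2.37% at P45. The log2 ratio of Scn8a to Scn3a within a library was below 0 in every P2 sample (-1.65 to -0.34), on both sides of 0 at P9 (-0.70 to 0.51), and above 0 in every P23 and P45 sample (1.08 to 2.50). At P45 Scn3a still made up at least 7.30% of the 4 alpha subunits in every library.

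**Figure D2:**
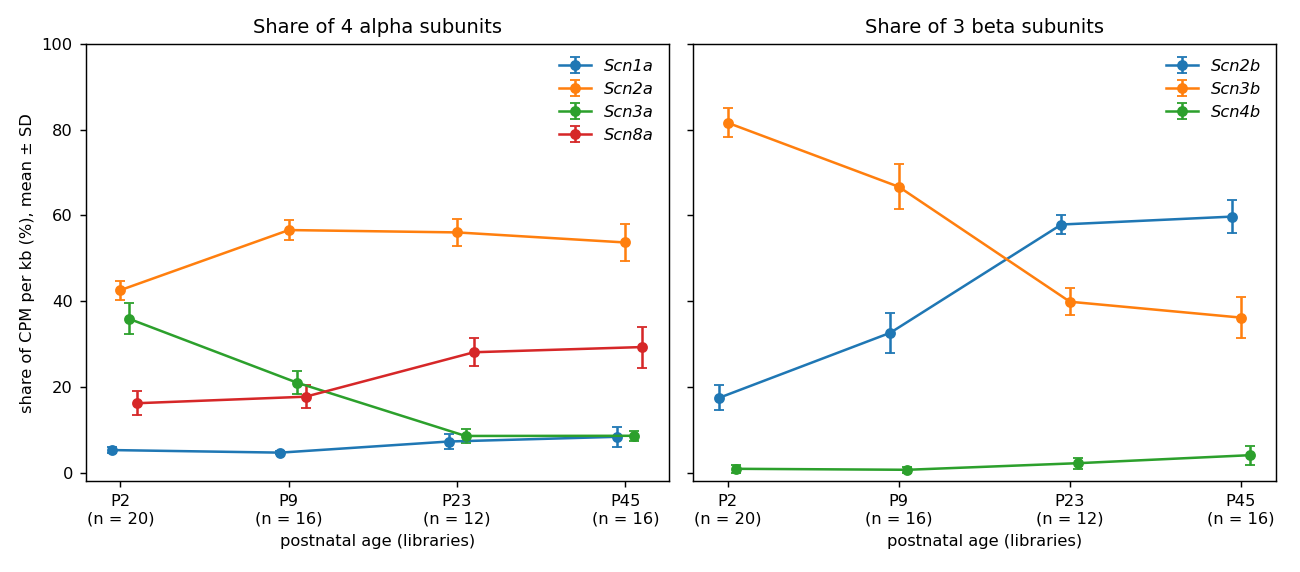
Share (percent of CPM per kb, mean ± SD over libraries) of each alpha subunit among the 4 alpha subunits (left) and of each beta subunit among the 3 beta subunits (right) at each postnatal age. Scn3a drops from 35.9% to 8.61% of the alpha subunits, and Scn2b passes Scn3b between P9 and P23.

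Scn2b encodes a beta subunit that is linked to the alpha subunit by a disulfide bond (rn6 chr8:49419003-49427550, plus strand, 4 exons). Levels, again as lowest, median, and highest, were 3.33, 3.83, and 4.58 in P2 tissue, 4.67, 5.31, and 5.67 in P9 tissue, 6.50, 6.78, and 6.97 in P23 tissue, and 6.36, 6.92, and 7.25 in P45 tissue. No P2 sample overlapped with P9 and none of P9 with P23, while P23 and P45 overlapped. Scn2b rose 4.83-fold from the younger to the older ages (LFC 2.27 ± 0.06, adjusted p 1.5e-36), with steps of 1.38 ± 0.09 (1.7e-19) and 1.52 ± 0.09 (1.4e-20) and then 0.12 ± 0.09 (0.59).

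Scn3b, a beta subunit that binds without such a bond (rn6 chr8:44136496-44159011, plus strand, 7 exons), had nearly the same level at every age. Its lowest, median, and highest levels were 7.98, 8.21, and 8.86 in P2 tissue, 8.16, 8.45, and 8.80 in P9 tissue, 8.05, 8.46, and 8.69 in P23 tissue, and 7.74, 8.39, and 8.58 in P45 tissue. All 4 ages overlapped. Between older and younger ages the LFC was 0.01 ± 0.04, with a 95% interval of -0.07 to 0.09 (adjusted p 0.76), although a small rise from P2 to P9 was called (0.16 ± 0.05, 0.0078).

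Scn4b encodes a beta subunit known for its part in resurgent sodium current (rn6 chr8:49441106-49456279, plus strand, 5 exons). The lowest, median, and highest levels of Scn4b were -1.91, 0.66, and 3.77 in P2 tissue, -1.91, 1.13, and 3.75 in P9 tissue, 2.75, 4.28, and 5.21 in P23 tissue, and 3.48, 5.19, and 6.20 in P45 tissue. The value -1.91 marks libraries with 0 counts, all of MEC LDeep. Younger and older samples overlapped, since LII at P2 and P9 reached the range of the lowest samples at P23. Scn4b rose 12.3-fold (LFC 3.62 ± 0.23, adjusted p 2.2e-20), mainly from P9 to P23 (3.15 ± 0.35, 2.8e-11), and was the 1 subunit called between P23 and P45 (1.00 ± 0.28, adjusted p 0.030), where 3.83% of all genes were called. Without the 4 libraries with cerebellar genes, this last step was 0.90 with an adjusted p of 0.13, by DESeq2 it was 1.00 (0.13), and with counts summed per replicate number it was 0.96 (0.50). From P2 to P9 the LFC was -0.07 ± 0.44 (0.91), and 1.16 (0.023) without the 3 MEC P2 libraries that stood apart, which also brought the LFC between older and younger ages to 4.23 (1.2e-27).

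Among the 3 beta subunits per kb, Scn3b made up 81.6 ± 3.4% at P2 and 36.2 ± 4.8% at P45, Scn2b 17.5 ± 2.9% and 59.7 ± 3.8%, and Scn4b 0.912 ± 0.993% and 4.08 ± 2.20%. The log2 ratio of Scn2b to Scn3b was below 0 in every P2 and P9 sample (-3.05 to -0.60) and above 0 in every P23 and P45 sample (0.21 to 1.15). These shares rest on the exon lengths of the files, in which Scn2b has 860 bases, Scn3b 3887, and Scn4b 4272.

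The same ages were compared in 3 lists of related genes. Of 6 other sodium channel genes, 5 were lower at the older ages and Nalcn, a sodium leak channel, was higher (LFC 0.70 ± 0.06, adjusted p 1.9e-16). Scn9a (Nav1.7), best known from sensory neurons, went from a median of 5.84 at P2 to 2.99 at P45 (LFC -2.57 ± 0.10, adjusted p 5.1e-30). Scn7a (LFC -1.31 ± 0.30, 9.7e-05) and Scn11a (-1.29 ± 0.21, 1.4e-07) were lower too, but never had more than 38 counts. Counts were as low for Scn4a (at most 39) and Scn10a (at most 24). In a list of 15 partners at the axon initial segment and node of Ranvier, 13 were tested (Ank2 and Cntnap2 were not analysed here), of which 7 were higher and 4 lower. Cntnap1, an adhesion molecule of the paranode, had an LFC of 3.43 ± 0.09 (2.2e-37), Sptbn4, the spectrin of initial segments and nodes, of 0.95 ± 0.08 (1.1e-15), and Nrcam, a nodal adhesion molecule, of 0.84 ± 0.05 (3.9e-23). Fgf11, a homologous factor that binds sodium channels, was lower (-1.27 ± 0.08, 2.3e-20). Of 8 tested regulators and processing enzymes, 4 were higher and 2 lower, the largest being the ubiquitin ligase Nedd4 (-0.48 ± 0.03, 4.9e-20) and the splicing factor Rbfox1 (0.41 ± 0.05, 1.2e-10), and Nova2 and Rcor1 were not analysed here. The median LFC was -1.0, 0.28, and 0.04 in the 3 lists, against 0.01 over all genes tested. Of all genes tested, 81.5% were called in this comparison (41.0% higher and 40.5% lower).

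**Figure D3:**
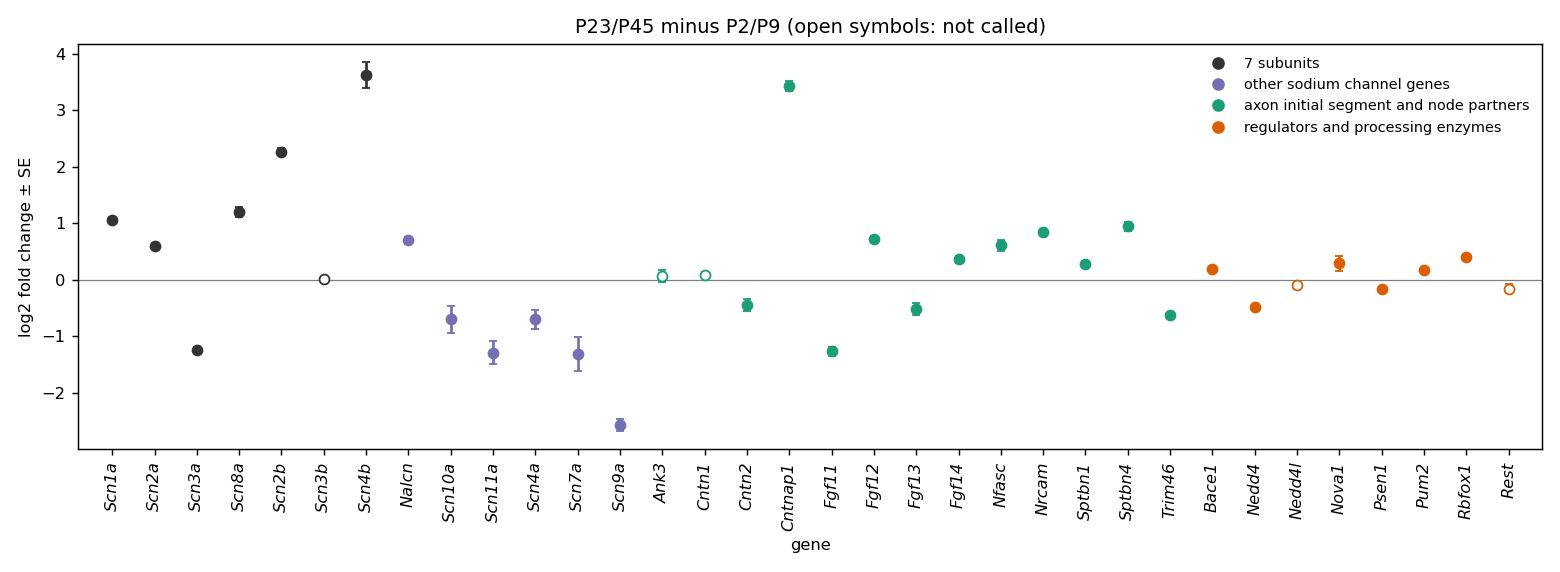
LFC of P23/P45 against P2/P9 (± SE) for the 7 subunits and 3 lists of related genes, with open symbols for genes not called. Cntnap1 (3.43) lies beside Scn4b (3.62), and Scn9a (-2.57) lies below Scn3a (-1.24).

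Cell types changed with age as well. The summed CPM of 6 neuronal markers had a range of 1551 to 2118 at P2 and 2516 to 4420 at P45, and that of 6 oligodendrocyte markers 94.6 to 176 at P2 and 772 to 11650 at P45. Their part in the changes of the subunits with age was not tested.

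Between layers, 5 of 7 subunits were called with ages and regions weighted equally, against 54.0% of all genes tested (23.5% higher in LII and 30.5% lower). In LII, 4 subunits were slightly lower, Scn2a (LFC -0.24 ± 0.05, adjusted p 0.00010), Scn3a (-0.27 ± 0.04, 1.2e-06), Scn2b (-0.18 ± 0.06, 0.017), and Scn3b (-0.28 ± 0.04, 8.1e-08). The difference of Scn2b was not called without the 4 libraries with cerebellar genes (-0.16, adjusted p 0.053). Scn1a (-0.05 ± 0.05, 95% interval -0.16 to 0.05) and Scn8a (-0.14 ± 0.09, -0.33 to 0.04) were not called. In contrast, Scn4b was 4.27-fold higher in LII (2.09 ± 0.24, 1.4e-10). Within the MEC alone 4 of 7 were called (40.8% of all genes), and within the LEC 6 of 7 (38.6%), with Scn4b higher and Scn2a, Scn3a, and Scn3b lower in LII in both. By limma voom, Scn2a (-0.08, 0.36) and Scn3a (-0.12, 0.10) were not called in the MEC, nor Scn2a (-0.15, 0.076) and Scn2b (-0.21, 0.0532) in the LEC. Without the 4 libraries with cerebellar genes, 2 of 7 were called in the MEC, where Scn2a (-0.18, 0.085) and Scn3a (-0.16, 0.055) were lost, and 4 of 7 in the LEC, where Scn1a (-0.20, 0.058) and Scn2b (-0.22, 0.075) were lost. The neuronal markers summed to 3584 to 4253 CPM in LDeep at P45 and to 2516 to 4420 CPM in LII, and their part in the small differences was not tested.

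The layer difference of Scn3b was seen in single libraries. At P9 its levels were 8.27, 8.41, 8.26, and 8.37 in MEC LII and 8.16, 8.16, 8.23, and 8.20 in LEC LII. In LDeep they were 8.73, 8.80, 8.69, and 8.62 in the MEC and 8.54, 8.53, 8.54, and 8.49 in the LEC. Every LII library was below every LDeep library at P9 (LFC -0.36 ± 0.08, adjusted p 0.00035), and likewise at P23 (-0.37 ± 0.09, 0.0015). At P2 its LFC was -0.11 ± 0.07 (0.31), and -0.26 (0.0015) without the 3 MEC P2 libraries. Scn2a was lower in LII at P23 (-0.43 ± 0.12, 0.0044) and P45 (-0.36 ± 0.10, 0.0058, but -0.29 and 0.075 without the 4 libraries with cerebellar genes), and had an LFC of -0.03 ± 0.09 at P2 and -0.13 ± 0.10 at P9 (adjusted p 0.83 and 0.32). In all, 1 subunit was called between layers in P2 tissue, 2 in P9 tissue, 3 in P23 tissue, and 3 in P45 tissue, against 19.2%, 32.9%, 25.9%, and 26.4% of all genes. Without the 4 libraries with cerebellar genes, edgeR called 0 at P45, where Scn3a was at -0.18 (adjusted p 0.21) and Scn3b at -0.21 (0.098), against -0.25 (0.026) and -0.26 (0.010) with them, and by limma voom neither was called (-0.18, 0.11, and -0.15, 0.14). With the replicate number as a block, 2, 3, 5, and 5 subunits were called at the 4 ages. The shares of all genes above are without the block, and those with it at each age are not given here. Over all ages the block took layer calls from 2939 higher and 3822 lower in LII to 3046 and 4021. Scn2b at P23 was called with the block (-0.29, 0.017) and without the 2 libraries far from their replicates (-0.33, 0.042). In the model of all 64 samples it was at -0.29 (0.13).

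Scn4b differed most between layers at the younger ages. At P2 the 5 levels of LEC LII were 3.11, 3.23, 2.78, 1.94, and 2.43, and those of LEC LDeep were -1.40, -0.55, -0.68, -0.36, and -0.45. In MEC LII they were 3.77, 3.02, -0.26, 2.65, and 1.59, and in MEC LDeep 2.74 in replicate 1, -1.34 in replicate 2, and -1.91 in the other 3. The LEC layers did not overlap, and the MEC layers overlapped through replicates 1 and 3, which are the libraries set apart above. At P9 the LII levels were 3.75, 2.63, 3.37, and 1.07 in the MEC and 3.07, 2.92, 2.52, and 1.63 in the LEC, while those of LDeep were -0.32, 0.09, 1.19, and -1.91 in the MEC and -1.40, -0.27, -0.08, and -1.28 in the LEC. Within each region no P9 library of LDeep reached those of LII, apart from MEC LDeep replicate 3 (1.19), which was above MEC LII replicate 4 (1.07).

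Between LII and LDeep, Scn4b had an LFC of 3.15 ± 0.51 in P2 tissue (adjusted p 8.5e-06) and 3.52 ± 0.56 in P9 tissue (2.3e-06). In P23 tissue it was 0.98 ± 0.43 (0.089), and in P45 tissue 0.72 ± 0.36 (0.14). Both were called with the replicate number as a block (0.99, 0.023, and 0.72, 0.044) and by limma voom (0.88, 0.032, and 0.64, 0.027). Neither was called without the 4 libraries with cerebellar genes (1.0, 0.12, and 0.75, 0.23). Whether age changed this layer difference was tested directly and called (older minus younger -2.48 ± 0.49, adjusted p 0.00031), as it was, by a narrow margin, for Scn2a (-0.31 ± 0.10, 0.0499). These are 2 of 7 subunits, against 8.79% of all genes. That of Scn2a was -0.30 (0.059) without the 3 MEC P2 libraries that stood apart and -0.31 (0.079) without the 4 with cerebellar genes. Without the 3 MEC P2 libraries, the layer difference of Scn4b at P2 was 5.40 (1.2e-11). Those of the older ages were then 0.99 (P23, 0.0052) and 0.73 (P45, 0.012), and older minus younger was -3.61 (3.5e-09). The remaining 4 MEC LDeep libraries at P2 held 1 count of Scn4b between them, so the size of 5.40 depends on the prior count of the model.

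At P2 and P9 both Scn4b and the meningeal markers had higher medians in LII than in LDeep, though not every library followed. The 5 meningeal markers summed to 13.3 to 596 CPM (median 399) in LII and 15.96 to 414 CPM (median 47.6) in LDeep at P2. Scn4b there had a median of 39 counts (6.30 CPM) in LII and 2 counts (0.244 CPM) in LDeep. Without the 3 libraries, the ranges were 280 to 596 CPM of meningeal markers with 24 to 53 counts of Scn4b in LII, and 15.96 to 78.1 CPM with 0 to 4 counts in LDeep. In MEC LDeep P2 replicate 1, both were as in LII (414 CPM and 45 counts), in MEC LII P2 replicate 3 both were low (22.3 CPM and 6 counts), and in MEC LII P2 replicate 1 Scn4b had 134 counts at 13.3 CPM of meningeal markers. The P9 markers summed to 159 to 514 CPM in LII, with 13 to 85 counts of Scn4b. In LDeep at P9 they summed to 52.96 to 185 CPM, with 0 to 20 counts. There MEC LDeep replicate 4 had 185 CPM of markers and 0 counts, while MEC LII replicate 4 had 159 CPM and 13 counts. At P45 the markers spanned a like range, 121 to 425 CPM in LII and 49.5 to 209 CPM in LDeep. Scn4b then had medians of 292.5 and 241.5 counts, which with library size are 55.05 CPM in LII and 31.41 CPM in LDeep. Of the 5 markers, 4 were higher in LII and Dcn was lower, with a median LFC of 3.75 over the list. The part of meninges in the Scn4b difference between layers was not tested.

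**Figure D4:**
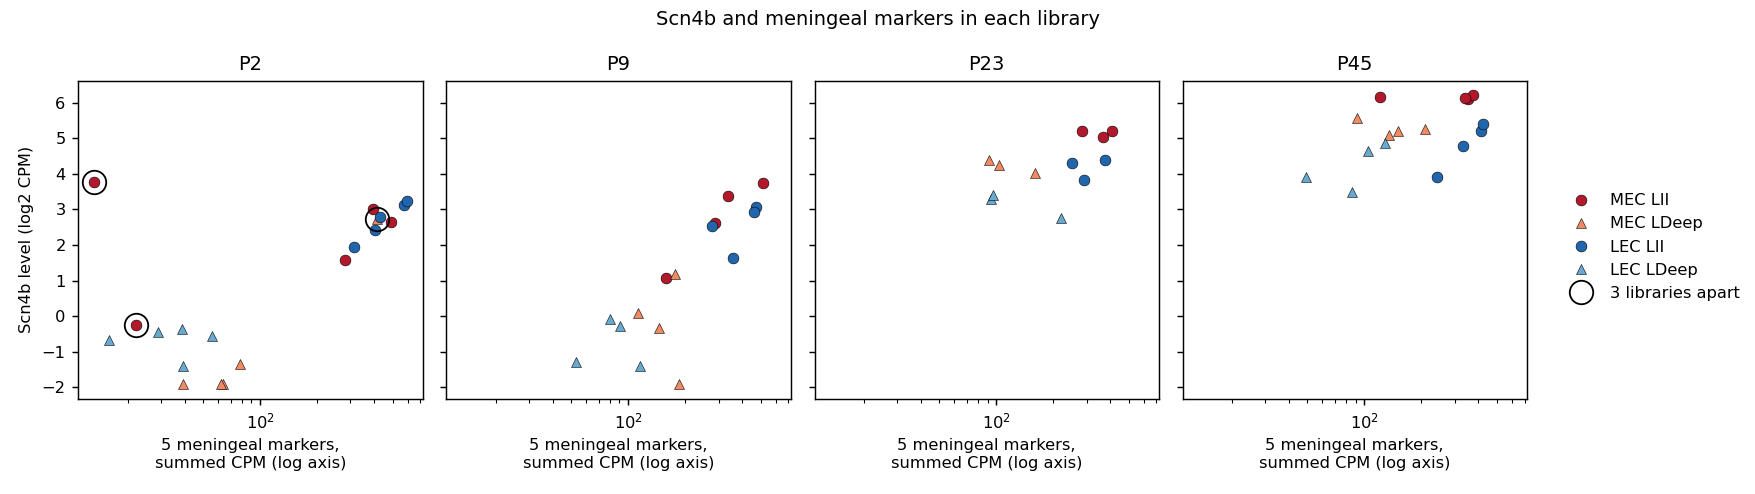
Scn4b level (log2 CPM) against the summed CPM of 5 meningeal markers (log axis) in each library, by age, with circles for LII, triangles for LDeep, and rings around the 3 MEC P2 libraries that stood apart. At P2, apart from 1 ringed library at 3.77, Scn4b is at 1.59 or above in libraries with at least 280 CPM of meningeal markers and at -0.26 or below in the others, whereas at P45 all 16 libraries are at 3.48 or above.

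The lists of related genes were compared between layers as well. Of the 6 other sodium channel genes, 2 were called, Scn10a (-0.55 ± 0.24, adjusted p 0.044) and Scn9a (-0.25 ± 0.10, 0.027), both lower in LII. Scn10a never had more than 24 counts. Among the 13 partners, 7 were lower and Fgf13, a homologous factor, was higher (0.36 ± 0.10, 0.0015), with Fgf11 (-0.70 ± 0.08, 2.2e-10) and the nodal adhesion molecule Nfasc (-0.50 ± 0.10, 3.9e-05) the lowest. Among the 8 regulators, 2 were higher and 5 lower, and Rest, a repressor of neuronal genes, had the highest LFC (0.63 ± 0.08, 8.3e-10). The median LFC was -0.19, -0.19, and -0.13 in the 3 lists, against -0.05 over all genes tested and -0.18 over the 7 subunits. Of all genes tested, 23.5% were called higher and 30.5% lower in LII.

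Between regions, 2 of 7 subunits were called, Scn1a and Scn4b, both higher in the MEC, against 15.3% of all genes tested (8.81% higher and 6.48% lower in the MEC). The LFC of the other 5 was between -0.07 ± 0.04 for Scn3a and 0.22 ± 0.09 for Scn8a, which had a 95% interval of 0.03 to 0.40 (adjusted p 0.12). Without MEC LDeep P2 replicate 4 and LEC LDeep P45 replicate 4, Scn8a was called (0.23, 0.033).

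Scn1a was 1.33-fold higher in the MEC (LFC 0.41 ± 0.05, adjusted p 4.1e-08). At P45 its levels were 7.52, 7.44, 7.39, and 7.85 in MEC LII and 7.32, 7.41, 7.42, and 7.27 in MEC LDeep. In the LEC they were 6.55, 6.90, 6.55, and 6.58 in LII and 7.13, 7.21, 6.81, and 7.05 in LDeep. All 8 MEC libraries were above all 8 LEC libraries at P45 (0.61 ± 0.10, adjusted p 2.9e-05). At P23 the levels were 7.68, 7.55, and 7.29 in MEC LII against 6.81, 6.55, and 6.26 in LEC LII, and 7.54, 7.32, and 6.96 in MEC LDeep against 6.74, 7.07, and 6.84 in LEC LDeep. These did not overlap in LII and overlapped in LDeep, with an LFC over both layers of 0.68 ± 0.12 (adjusted p 0.00016). At P2 and P9 the LFC was 0.11 ± 0.10 (0.58) and 0.23 ± 0.11 (0.32). Called subunits numbered 0 in P2 tissue and 0 in P9 tissue by edgeR, limma voom, and DESeq2 (1 and 2 at an unadjusted p below 0.05 by edgeR), 1 in P23 tissue, and 2 in P45 tissue, against 2.66%, 3.87%, 3.57%, and 9.06% of all genes.

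The change of Scn1a with age differed between regions (0.47 ± 0.11, adjusted p 0.0037), and so did that of Scn3a (-0.31 ± 0.09, 0.031), which is 2 of 7 subunits against 4.34% of all genes. For Scn3a, the difference between MEC and LEC was 0.20 ± 0.08 at P2 and -0.23 ± 0.09 at P45, and neither was called by itself (adjusted p 0.18 and 0.097), although that at P45 was called without the 4 libraries with cerebellar genes (-0.31, 0.041). Its change with age was not called to differ between regions without the 2 libraries far from their replicates (-0.26, 0.078). The share of Scn3a among the alpha subunits was 36.4 ± 3.5% in the MEC and 35.4 ± 3.8% in the LEC at P2 (n = 10 each), and 7.91 ± 0.41% and 9.32 ± 1.20% at P45 (n = 8 each). That of Scn1a was 5.20 ± 0.54% and 5.37 ± 0.92% at P2, and 10.1 ± 1.9% and 6.65 ± 1.32% at P45.

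In LII, Scn1a was the 1 subunit called between regions (0.58 ± 0.08, adjusted p 7.1e-08), where 12.6% of all genes were. Scn4b was called there as well without the 3 MEC P2 libraries (0.56, 0.041), as was Scn2b with the replicate number as a block (0.20, 0.023). In LDeep the LFC of Scn1a was 0.23 ± 0.08 (0.0503). There 0 of 7 subunits were called by edgeR, against 5.77% of all genes, with 3 at an unadjusted p below 0.05. By limma voom 0 were called, and by DESeq2 2 (Scn1a and Scn4b). The same 2 were called with the replicate number as a block (Scn1a 0.23, 0.039, and Scn4b 1.19, 0.031), and Scn1a with that number as a random effect (0.22, 0.037) and without MEC LII P2 replicate 1 (0.24, 0.048). For Scn1a, the difference of this LFC between LII and LDeep is also the difference of the layer contrast between regions. It was 0.35 ± 0.11 with an adjusted p of 0.097, and 0.35 (0.046) with the replicate number as a block. By the edgeR test, 0 of 7 subunits were called for that difference, where 1.24% of all genes were, and Scn1a was the 1 with an unadjusted p below 0.05. limma voom and DESeq2 called 0 of 7 as well. In the LEC, LII had less Scn1a than LDeep (-0.23 ± 0.08, 0.015), a call lost without the 4 libraries with cerebellar genes (-0.20, 0.058) and by limma voom (-0.15, 0.11), and the LFC between the layers of the MEC was 0.12 ± 0.07 (adjusted p 0.20), but 0.20 (0.032) and called by limma voom. At P45, markers of GABAergic neurons in LII summed to 597 to 702 CPM in the MEC and 493 to 611 CPM in the LEC. In LDeep they summed to 667 to 757 CPM in the MEC and 710 to 785 CPM in the LEC. Pvalb, which marks fast-spiking interneurons, had an LFC of 0.86 ± 0.51 between regions over all ages (adjusted p 0.30). The oligodendrocyte markers summed to 3455 to 11650 CPM in the MEC and 772 to 4130 CPM in the LEC at P45. Their part in the regional difference of Scn1a was not tested.

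Scn4b was 1.90-fold higher in the MEC (0.93 ± 0.25, adjusted p 0.0070). At P45 its levels were 6.09, 6.20, 6.14, and 6.16 in MEC LII and 5.19, 5.41, 4.79, and 3.90 in LEC LII. In LDeep they were 5.27, 5.19, 5.57, and 5.09 in the MEC and 4.65, 4.87, 3.48, and 3.90 in the LEC. MEC and LEC did not overlap within either layer at P45 (1.11 ± 0.36, adjusted p 0.041), although the call was lost by DESeq2 (1.10, 0.17), with no filter on low counts (1.11, 0.055), and without the 2 libraries far from their replicates (1.06, 0.066). Over all ages limma voom gave 0.46 (adjusted p 0.25), and without the 3 MEC P2 libraries the edgeR value was 0.31 (0.74), with -1.60 for P2 (0.33, again with 1 count in MEC LDeep), 0.73 for P9 (0.48), 1.01 for P23 (0.019), and 1.11 for P45 (0.00047). The call over all ages was also lost with the replicate number as a random effect (0.43, 0.28) and without P9 replicate 3 (0.80, 0.078). It was kept without MEC LII P2 replicate 1 alone (0.85, 0.012).

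**Figure D5:**
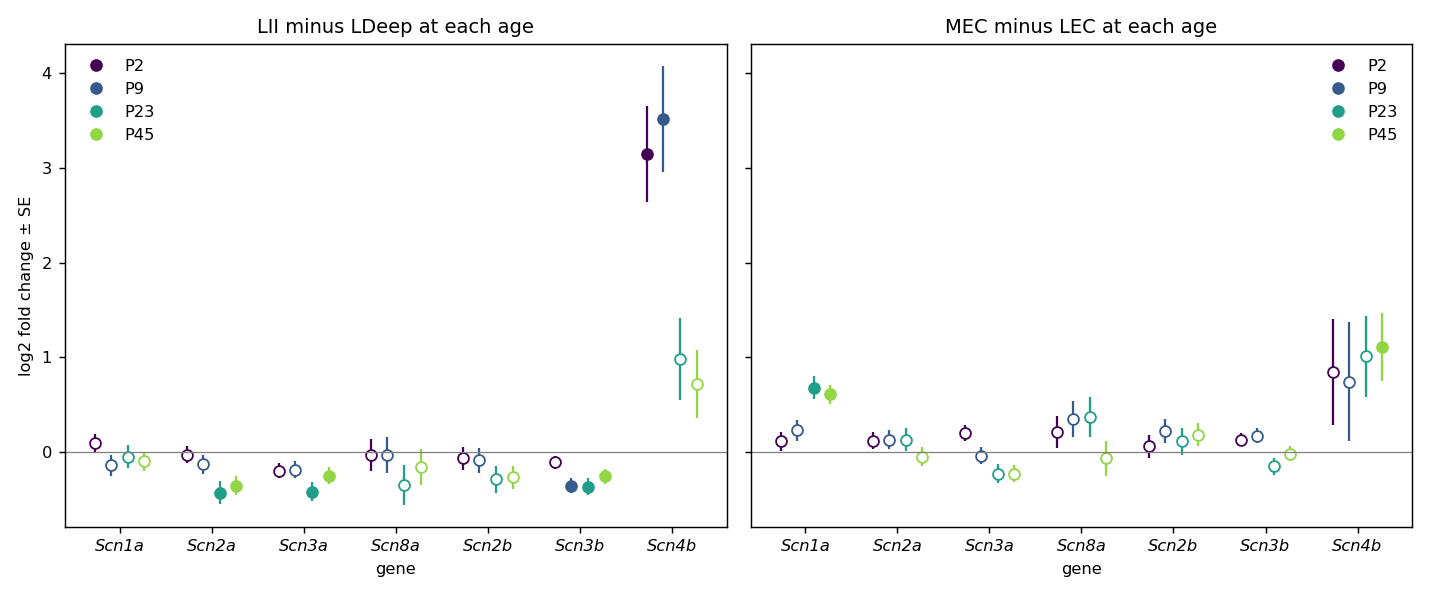
LFC (± SE) of each subunit between LII and LDeep (left) and between MEC and LEC (right) at each age, with filled symbols for genes called and open symbols for those not called. Scn4b is at 3.15 and 3.52 between layers at P2 and P9, and Scn1a is at 0.68 and 0.61 between regions at P23 and P45.

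Of the 6 other sodium channel genes, 2 were called between regions. Scn11a (-1.09 ± 0.21, adjusted p 9.1e-05) and Scn4a (-0.63 ± 0.17, 0.0058), the channel of skeletal muscle, were lower in the MEC. Counts were few, at most 27 for Scn11a and 39 for Scn4a. The 3 partners called were all higher in the MEC, Cntnap1 (0.46 ± 0.09, 8.3e-05), Cntn2 (0.45 ± 0.11, 0.0020), and Nfasc (0.36 ± 0.10, 0.0076), and among the regulators Rbfox1 was higher (0.17 ± 0.05, 0.014). The median LFC was -0.40, 0.14, and 0.10 in the 3 lists, against 0.01 over all genes tested and 0.14 over the 7 subunits. Of all genes tested, 8.81% were called higher and 6.48% lower in the MEC.

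Correlations of the subunits across the 16 group means are given as a description of these data. The age, layer, and region of a group are shared by all genes, and no p-value is given. Pearson's r of log2 CPM was 0.97 between Scn8a and Scn2b, 0.93 between Scn1a and Scn8a, and -0.93 between Scn3a and Scn2b, while Scn3b had an r between -0.32 and 0.51 with the other 6. Among the 12514 other genes tested, the most alike were Kif3b, Whsc1, and Phf14 for Scn3a (r 0.993, 0.992, and 0.991), and Pde4a, Grin1, and Pik3r4 for Scn8a (0.993, 0.989, and 0.989). For Scn2b they were Rnf6, Dnajc27, and Aldoa (0.996, 0.996, and 0.995), for Scn1a Asap1, Depdc5, and Atg4d (0.985, 0.974, and 0.967), and for Scn2a the leak channel Nalcn, Hsp90b1, and the sodium-calcium exchanger Slc8a2 (0.983, 0.975, and 0.972). Scn4b was most like Kif1c, Adamtsl5, and Lmod1 (0.979, 0.977, and 0.975), and Scn3b had no gene above 0.911 (Fbxo7).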

How the data were processed

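RNA from 64 tissue pieces in 16 groups of age, region, and layer was sequenced as paired-end, strand-specific, ribosome-depleted total RNA. The authors deposited raw counts per gene. Per the labels and methods, reads were demultiplexed with bcl2fastq 1.8.4, trimmed with Trimmomatic 0.33, aligned to rn6 with STAR 2.4.0, and counted over RefSeq exons with featureCounts of Subread 1.4.6-p1. Reads shared by near-identical genes are not resolved by such counting, and no exon of the 7 subunits overlapped another gene.

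From the deposited counts, edgeR 4.0.16 (R 4.3.3) was used with TMM, filterByExpr (minimum count 10), and the robust quasi-likelihood test on all 64 samples, with 1 mean per group. Group means were weighted equally in each contrast, SE was taken from the LFC and the F statistic, and p-values were adjusted by Benjamini-Hochberg. Of 100 pairs of replicates, 0 held identical values, and the smallest chi-square per degree of freedom between 2 replicates was 2.82. Alternatives were limma 3.58.1 (voom with TMM and quantile normalization, the study's method), DESeq2 1.42.0, other scaling and filters, replicate numbers as blocks, 1 region only, and samples left out. The scripts were tested on simulated counts.

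The named genes were the 7 subunits, up to 4 genes per list of related genes and contrast with the largest absolute LFC, and for each subunit the 3 genes most alike over the 16 group means. The subunits and lists were chosen with earlier results of these data known. Some genes of these lists are not reported here.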

Additional observations from a re-analysis of the deposited data

Results flagged for a closer look

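Single libraries lay apart from the others of their group in 5 of 84 combinations of a subunit and a group of 4 or 5 libraries, where chance gives about 1 in 20. Scn4b in MEC LDeep P2 replicate 1 was at 2.74 log2 CPM, against -1.34 or less in the other 4. Scn8a in MEC LDeep P2 replicate 4 was at 8.27. Scn3a in LEC LII P2 replicate 1 was the lowest of its group at 7.82, as was Scn2b in MEC LII P9 replicate 4 at 4.69. Scn1a in LEC LII P45 replicate 2 was the highest of its group at 6.90.

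Effects that differed between groups by a test of the difference itself were the change with age between layers for Scn4b (-2.48, adjusted p 0.00031) and Scn2a (-0.31, 0.0499), and the change with age between regions for Scn1a (0.47, 0.0037) and Scn3a (-0.31, 0.031).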

How the results depend on the processing

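The rise of Scn1a, Scn2a, Scn8a, Scn2b, and Scn4b and the fall of Scn3a with age, the layer differences of Scn3a, Scn3b, and Scn4b, and the regional difference of Scn1a kept direction and call under every alternative run that tested them. With at least 10 counts required in every sample, Scn4b was not tested, since it had 0 counts in some libraries. Leaving out libraries that stood apart was chosen after seeing the data, and the cause of the changes below was not tested unless fewer samples or genes entered the test.

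Between older and younger ages, Scn3b had an LFC of -0.07 by voom, -0.00 with counts summed per replicate number, -0.10 in the MEC alone, 0.12 (adjusted p 0.016) in the LEC alone, -0.01 without the 4 libraries with cerebellar genes, and -0.03 to 0.03 with 1 replicate (1 number of 1 age, in all groups) left out. Scn4b from P2 to P9 was 0.25 by voom, 0.06 summed, 0.44 with the replicate number as a random effect, 1.16 without the 3 MEC P2 libraries, and -0.45 to 1.23 with 1 replicate left out (1.23 without P2 replicate 1, 0.028). Between layers, Scn1a was 0.02 by voom, 0.12 in the MEC alone (0.20 at P45), and -0.21 (0.020) in the LEC alone. Scn2a in the MEC alone was -0.19 (0.058), and Scn3b at P2 there was 0.02. Scn2b was -0.13 (0.097) with at least 10 counts in every sample, -0.12 in the MEC alone, -0.16 (0.053) without the 4 libraries, and -0.21 to -0.13 with 1 replicate left out (lost without P2 replicate 2 and P23 replicate 2). Between regions, Scn4b was 0.46 (0.25) by voom, 0.43 (0.28) with the random effect, 0.31 without the 3 libraries, and 0.24 to 1.01 with 1 replicate left out (0.24, 0.85 without P2 replicate 1, and 0.80, 0.078 without P9 replicate 3). Scn3b was -0.00 without the 3 libraries, Scn8a was 0.16 to 0.28 with 1 replicate left out (called without P9 replicate 4 or P45 replicate 4, and at 0.23, 0.033 without the 2 libraries far from their replicates), and Scn2b was 0.12 to 0.18 (called without P9 replicate 4).

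Samples with the same replicate number had a mean correlation of deviations of 0.134 (lowest -0.259, 55 of 96 pairs above 0.1), and 42 of 64 correlated best with their own number, a hint from the data, not the design. With the replicate number as a block, Scn2b between regions was called (0.14, 0.019), Scn1a was called for the layer difference between regions (0.35, 0.046), and that comparison had 287 calls against 155.

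Over all genes, calls between P23 and P45 (480) were 59 summed, 248 with the random effect, 75 in the MEC alone, 221 in the LEC alone, 723 without the 3 libraries, and 280 to 637 with 1 replicate left out. With at least 10 counts in every sample, where fewer genes were tested, calls between layers were 4352 (6761 otherwise), 3313 in the MEC, 2891 in the LEC, and 1232, 2429, 2137, and 2047 from P2 to P45. In the MEC and LEC alone they were 533 and 1591 at P2, 1528 and 2083 at P9, 1582 and 1739 at P23, 1429 and 1947 at P45, and 432 and 490 for the change with age (1101). With 1 replicate left out they were 1430 to 2324 at P2 and 2065 to 3686 at P23. The layer difference between regions had 243 calls without the 3 libraries, 103 without the 4, and 63 to 217 with 1 replicate left out. Calls between regions were 118 to 499 at P2, 262 to 633 at P9, 111 to 601 at P23, 528 to 1335 at P45, and 281 to 666 for the change with age with 1 replicate left out. They were 216 at P2 without the 2 libraries, 740 at P9 and 689 at P23 without the 3 libraries, and 684 at P23 with the random effect. Depth limits Scn4b at P2 and P9, where LDeep had at most 45 counts.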
